A study of Homo sapiens with 12 samples.

Results

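The 10 genes described here encode the RNA helicases and related ATPases that drive the human spliceosome through its cycle: DDX39B, DDX46, DDX42, DDX23, SNRNP200, DHX16, AQR, DHX38, DHX8 and DHX15. They were chosen by gene name, and each name matched 1 row of the 78932 genes in the kava table and 1 row of the 35697 genes in the siRNA table. The set takes its name from the DEAD and DEAH families, called after 4-letter amino acid motifs of their ATP-binding sites, but not every member belongs to them. SNRNP200 is a Ski2-like helicase and AQR a UPF1-like one, and both are included because they act in the same cycle.

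Each step of splicing is driven by an ATPase that removes a protein or unwinds an RNA duplex, so that the next arrangement can form. DDX39B, DDX46 (the human Prp5) and DDX42 act around the U2 small nuclear ribonucleoprotein (U2 snRNP) as it takes hold of the intron's branch site, and DDX39B also belongs to the TREX complex of mRNA export. DDX23 (Prp28) exchanges U1 for U6 at the upstream splice site, and SNRNP200 (Brr2) unwinds U4 from U6. DHX16 (Prp2) and DHX38 (Prp16) remodel the complex before and after the branching reaction, and AQR holds the intron within the intron-binding complex. DHX8 (Prp22) releases the spliced mRNA, and DHX15 (Prp43) takes apart the remaining intron complex with the help of G-patch proteins.

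RNA was sequenced from BEAS-2B cells, an immortalised human bronchial epithelial line, in 12 libraries that form 4 groups of 3. In the kava group, cells had received 25 µg/ml kava, an extract of the pepper plant Piper methysticum, with 0.25 µM K2Cr2O7, a hexavalent chromium salt, for 20 weeks. In the vehicle group the chromium salt was given over the same 20 weeks with 0.05% DMSO. In the SNRPA1 siRNA group, cells of the vehicle and chromium regimen were harvested 48 h after transfection with 100 nM of a SmartPool, a mixture of siRNAs, against SNRPA1, and in the control siRNA group after 100 nM non-targeting siRNA. All 4 groups thus carried the chromium exposure, and none was free of it. The title of the series ties kava to lower SNRPA1, a protein of the U2 snRNP. The comparisons ask here how the helicase transcripts stood with kava and after siRNA against SNRPA1.

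Kava and vehicle levels are TPM, transcript levels scaled by length to a sum of 1000000 in each library, from which depth cannot be read. The siRNA libraries held 55003534 to 65385258 counts each, and the 10 helicases had between 2995 and 26540 counts per library. Levels of 1 gene between siRNA groups are given as CPM (counts per 1000000 after TMM scaling), and levels between genes as FPKM, which are per length. Called means a Benjamini-Hochberg adjusted p under 0.05 over all tested genes. Nothing in the labels states that the 3 libraries of a group came from different cultures, and the p-values therefore cover the spread among libraries, which may be technical. In bulk RNA a change in cell makeup and a change in RNA per cell cannot be told apart. Of 8 bronchial epithelial markers, KRT7, KRT8 and KRT18 were abundant (KRT8 at 494 to 593 TPM and 1005 to 1358 CPM), KRT19, ITGB4 and EPCAM were lower, and KRT5 and CDH1 stayed under 1 in either unit. Of 8 fibroblast markers, THY1 (373 to 415 TPM and 451 to 664 CPM), COL1A1 and PDGFRB were well above 1 in all libraries, whereas COL3A1, PDGFRA, DCN and LUM stayed under 1. Of 6 blood markers, CD14 lay at 6.53 to 8.84 TPM and 12.8 to 19.6 CPM, and HBB was listed at 0 in all libraries. SNRPA1 itself stood at 21.3, 20.9 and 23.7 CPM with SNRPA1 siRNA, against 67.5, 58.8 and 60.1 CPM with control siRNA (log2 fold change -1.50 ± 0.0980 SE, edgeR adjusted p = 0.00495). Its kava levels were 124, 127 and 130 TPM, against 153, 152 and 147 TPM with vehicle (-0.24 ± 0.0359, limma adjusted p = 0.00227).

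The genes lie on 8 chromosomes (hg38, positions from the siRNA table, exon counts of a principal GENCODE 29 transcript). DDX39B runs over chr6:31530219-31542401 on the minus strand with 11 exons, and DHX16 over chr6:30653119-30673006 on the same strand with 20. DDX46 occupies chr5:134758771-134829932 on the plus strand in 23 exons, and DDX42 chr17:63773603-63819317 on the plus strand in 19. DHX8 shares chromosome 17, at chr17:43483865-43590741 on the plus strand, with 23 exons. DDX23 lies at chr12:48829756-48852176 on the minus strand with 17 exons. SNRNP200 lies at chr2:96274338-96305546 on the minus strand with 45. AQR spans chr15:34851782-34969742 on the minus strand with 35 exons, DHX38 chr16:72093613-72112903 on the plus strand with 27, and DHX15 chr4:24517441-24584537 on the minus strand with 14.

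The promoters of these genes share a feature that the choice of members did not use. In the 150 bases before the RefSeq transcript start (GRCh38.p14), the letters CGGAAG, the core that ETS-family factors bind, were present on either strand in 9 of the 10, all but DDX23. The same letters occurred in 12.5% of the 35116 promoter entries of the table, in 27.7% of the 9906 genes with an entry that were tested in both experiments, in 30 of 62 splicing and export partners of the helicases, and in 17 of 37 other DEAD and DEAH helicases. The GC box letters GGGCGG were present in 5 of the 10, against 36.8% of all entries and 69.5% of the genes tested in both, and the CCAAT box in 3, against 23.5% and 33.1%. For the GC box, 19 of 37 other DEAD and DEAH helicases (51.4%) and 34 of 62 partners (54.8%) held a match. For the CCAAT box these were 14 of 37 (37.8%) and 16 of 62 (25.8%). The members lay near these sets for both motifs. The letters ATGGCG, the YY1 core, were in 1 of the 10 (AQR), 4.03% of entries and 7.69% of the tested genes, and TATAAA in none of the 10, 6.71% of entries and 4.41% of the tested genes. A match is a description of the letters and no evidence of binding. The promoters of DDX46, DHX15 and SNRNP200 are shown because they carry the shared letters, SNRNP200 in a head-to-tail pair, and that of DDX23 because it alone lacks them. Capitals mark any of the 5 motifs on either strand.
DDX46: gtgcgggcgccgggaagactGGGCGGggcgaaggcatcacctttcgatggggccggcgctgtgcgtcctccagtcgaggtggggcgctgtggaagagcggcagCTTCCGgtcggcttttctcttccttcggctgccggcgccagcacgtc
DHX15: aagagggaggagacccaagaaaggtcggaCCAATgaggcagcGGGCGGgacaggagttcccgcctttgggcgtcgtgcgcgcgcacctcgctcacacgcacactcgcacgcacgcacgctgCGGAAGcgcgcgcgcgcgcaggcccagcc
SNRNP200: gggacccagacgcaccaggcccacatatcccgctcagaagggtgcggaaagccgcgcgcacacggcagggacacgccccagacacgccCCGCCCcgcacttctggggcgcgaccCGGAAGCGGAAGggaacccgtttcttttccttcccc
DDX23: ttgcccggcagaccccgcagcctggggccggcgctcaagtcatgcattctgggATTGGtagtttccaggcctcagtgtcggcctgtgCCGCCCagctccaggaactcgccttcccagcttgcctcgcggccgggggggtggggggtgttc
In GRCh38.p14 these windows lie at chr5:134758629-134758778 on the plus strand and, on the minus strand, at chr4:24584555-24584704, chr2:96305547-96305696 and chr12:48852164-48852313. Of the 150 bases, 8 in the DDX46 window and none in the other windows printed here fall in an exon of the same gene in GENCODE 29. The windows of DDX42, DHX38 and DDX39B lie wholly within such exons, and those of DHX8, AQR and DHX16 overlap them by 110, 97 and 31 bases. These 6 windows are counted above but not shown.

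In every group DDX39B was the most abundant member and AQR the least. With kava the TPM means ran from DDX39B (298) through DHX15 (161), DDX42 (138), SNRNP200 (116), DDX23 (102), DDX46 (94.3), DHX38 (52.0), DHX16 (43.9) and DHX8 (28.0) to AQR (23.1). With vehicle the order was the same, from 356 TPM for DDX39B to 27.6 TPM for AQR. Neighbours overlapped in range for DDX23 and DDX46 with kava, and for DHX38 and DHX16 and for DHX8 and AQR with vehicle. The 10 genes summed to 1039, 1075 and 1055 TPM in the kava libraries, against 1184, 1159 and 1146 TPM in the vehicle libraries.

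With kava, 3 of the 10 helicase transcripts were lower and none was higher. They were DDX39B, which recruits U2 and loads export factors, DHX15, which takes the spent complex apart, and DDX42, which works on the U2 snRNP. Each fell by 11.3 to 16.4% of its vehicle mean. Over all 13866 tested genes, limma called 15.6% lower, 16.3% higher and 31.9% in either direction, so the 3 of 10 called in either direction are close to the background. At an unadjusted p under 0.05, limma gave 5 members lower and 0 higher, where 21.9% of all genes were lower, 20.9% higher and 42.8% in either direction at that threshold.

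DDX39B stood at 306, 307 and 282 TPM with kava, against 362, 362 and 345 TPM with vehicle. The highest kava library lay below the lowest vehicle library (log2 fold change on log2(TPM + 1) -0.26 ± 0.0443 SE, limma adjusted p = 0.00429). DHX15 stood at 166, 162 and 156 TPM with kava, against 181, 185 and 185 TPM with vehicle. Again the groups did not overlap (-0.19 ± 0.0353, limma adjusted p = 0.00646). DDX42 stood at 132, 142 and 140.0 TPM with kava, against 162, 155 and 149 TPM with vehicle. Kava replicate 1 was the lowest library (-0.17 ± 0.0463, limma adjusted p = 0.0266), and without it the log2 fold change was -0.14 and the call was lost (limma adjusted p = 0.0637, with 28.5% of genes and 2 members called).

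AQR and SNRNP200 were lower in every kava library than in any vehicle library but were not called. AQR had 19.7, 25.0 and 24.4 TPM with kava, against 28.1, 27.1 and 27.5 TPM with vehicle. Kava replicate 1 was by far the lowest library (-0.26 ± 0.0868, limma adjusted p = 0.0593), and without that library the log2 fold change was -0.15. SNRNP200 had 117, 119 and 113 TPM with kava, against 126, 126 and 123 TPM with vehicle (-0.10 ± 0.0358, limma adjusted p = 0.0654). In all, 5 of the 10 members had kava libraries wholly below the vehicle libraries and 0 wholly above, where 24.6% of tested genes lay wholly below and 22.6% wholly above (47.2% in either direction).

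The other 5 members had overlapping groups. DDX46, the partner of SF3B1 at the branch site, had 82.7, 91.3 and 109 TPM with kava, against 88.7, 81.2 and 87.0 TPM with vehicle. Kava replicate 3 lay above all other libraries, and the others were mixed. Its log2 fold change was 0.13 (95% interval -0.091 to 0.35, limma adjusted p = 0.337), with 0.022 without kava replicate 3 and 0.22 without kava replicate 1. DHX16 had 41.0, 45.0 and 45.7 TPM with kava, against 52.2, 45.4 and 45.6 TPM with vehicle (-0.12, 95% interval -0.28 to 0.045), and its log2 fold change was -0.051 without vehicle replicate 1 and -0.069 without kava replicate 1. DDX23, DHX38 and DHX8 had log2 fold changes of -0.0071, 0.015 and 0.00085, with 95% intervals of -0.097 to 0.083, -0.14 to 0.17 and -0.13 to 0.13.

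Several marker transcripts moved with kava as well. The 8 epithelial markers summed to 1289 to 1351 TPM with kava and 1204 to 1250.03 TPM with vehicle, and of the 6 that were tested KRT7 (1.08) and ITGB4 (0.65) were higher and KRT19 (-3.85), KRT8 (-0.21) and KRT18 (-0.11) lower. The 8 fibroblast markers summed to 502 to 529 TPM with kava and 479 to 513 TPM with vehicle, with COL1A2 (3.12) higher and COL1A1 (-0.14) lower among 4 tested. Of 8 nuclear or non-polyadenylated RNAs, whose sum was 3677 to 10961 TPM with kava and 3907 to 6595 TPM with vehicle, MALAT1 (0.65) and NEAT1 (0.46) were higher and none was called lower by limma (0 also at an unadjusted p under 0.05). With SNRPA1 siRNA, edgeR called 0 of 5 tested epithelial markers. COL1A1 (0.38) was higher among 3 tested fibroblast markers, and NEAT1 (-0.46) lower among 5 tested nuclear RNAs. With control siRNA replicate 1 left out, each of these lists had 2 called higher, and the nuclear list 1 lower. Of 13 mitochondrial mRNAs, limma called 1 lower and 0 higher with kava. SNRPA1 siRNA gave 1 higher and 0 lower by edgeR. Leaving out control siRNA replicate 1 gave 10 higher and 0 lower (median 0.28), where 16.2% of all tested genes were higher. The part of the marker shifts in the helicase values was not tested in either comparison.

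**Figure D1:**
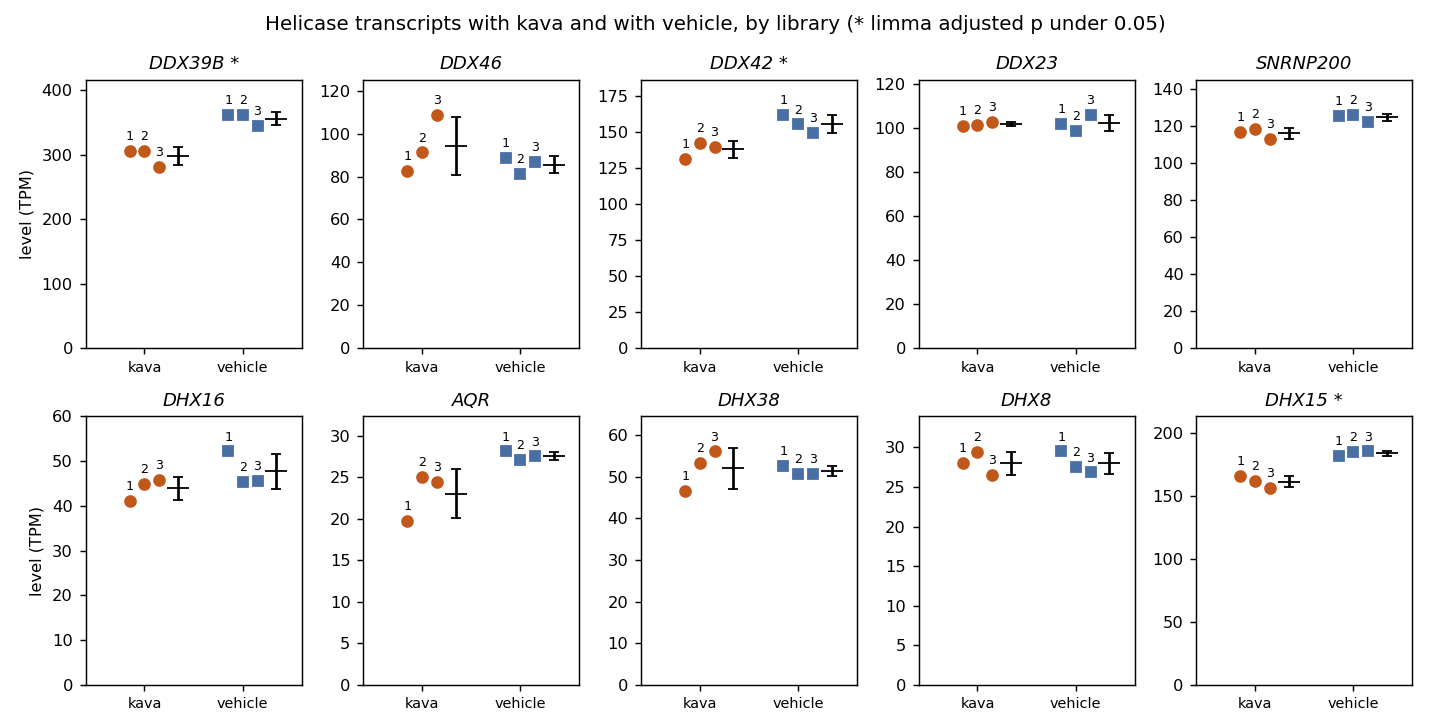
Levels of the 10 helicase transcripts in TPM (y axes from 0) in the 3 kava libraries (orange circles) and the 3 vehicle libraries (blue squares), with replicate numbers; black bars are means ± SD and an asterisk marks a limma adjusted p under 0.05. DDX39B, DDX42 and DHX15 carry the asterisk, and the kava points of these genes, of SNRNP200 and of AQR lie wholly below the vehicle points.

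After SNRPA1 siRNA the largest shifts were those of DDX46 and DDX42, in opposite directions. Both act around the U2 snRNP, as does DDX39B, whose log2 fold change was -0.27 and which was not called. DDX46 was 1.94-fold higher and DDX42 stood at 0.576 of its control level, while DDX23, the tri-snRNP helicase, was 1.23-fold higher. These 3 were the called members, 2 higher and 1 lower. edgeR called 4.89% of the 13772 tested genes higher, 7.29% lower and 12.2% in either direction.

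DDX46 stood at 183, 171 and 162 CPM with SNRPA1 siRNA, against 70.8, 99.5 and 95.2 CPM with control siRNA. Every SNRPA1 siRNA library lay above every control, by more than the spread within either group (log2 fold change 0.96 ± 0.137 SE, edgeR adjusted p = 0.0125). DDX42 stood at 94.98, 86.3 and 89.0 CPM with SNRPA1 siRNA, against 137, 168 and 164 CPM with control siRNA. Here the knockdown libraries lay wholly below (-0.80 ± 0.09997, edgeR adjusted p = 0.0103). DDX23 stood at 208, 223 and 211 CPM with SNRPA1 siRNA, against 166, 179 and 176 CPM with control siRNA. The groups were apart and each was tight (0.30 ± 0.0711, edgeR adjusted p = 0.0390).

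Per length, DDX46 and DDX42 changed places. DDX46 had 17.96, 16.4 and 15.4 FPKM with SNRPA1 siRNA, against 6.80, 10.3 and 9.73 FPKM with control siRNA. DDX42 had 10.06, 8.94 and 9.13 FPKM with SNRPA1 siRNA, against 14.2, 18.7 and 18.2 FPKM with control siRNA. The DDX46 to DDX42 ratio of FPKM values was 1.79, 1.83 and 1.68 in the SNRPA1 siRNA libraries, against 0.479, 0.549 and 0.536 in the control libraries. The same ratio of TPM values was 0.628, 0.641 and 0.777 with kava, against 0.547, 0.522 and 0.583 with vehicle. This ratio was chosen after the values of both genes were seen and was not tested. The sum over the 10 helicases was 192 ± 6.68 FPKM with SNRPA1 siRNA and 188 ± 17.2 FPKM with control siRNA (SD, n = 3 each), and DDX39B led and AQR closed the order in both groups, at 37.5 and 3.92 FPKM with SNRPA1 siRNA and 46.9 and 4.21 FPKM with control siRNA.

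Among the members that were not called, DHX15 had the largest fitted difference. It had 274, 253 and 239 CPM with SNRPA1 siRNA, against 139, 209 and 194 CPM with control siRNA. The groups did not overlap, but control replicate 1 lay far below the other controls (0.50 ± 0.153, edgeR adjusted p = 0.0748). DDX39B had 295, 293 and 299 CPM with SNRPA1 siRNA, against 391, 330.3 and 346 CPM with control siRNA. For this gene control replicate 1 was instead the highest (-0.27 ± 0.0811, edgeR adjusted p = 0.0736).

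The readthrough gene ATP6V1G2-DDX39B shares 2079 exonic bases and the strand with DDX39B, so reads could be split between them. It had 13.4, 23.2 and 14.2 CPM with SNRPA1 siRNA, against 54.8, 80.2 and 62.6 CPM with control siRNA, and was called lower (-1.96 ± 0.245, edgeR adjusted p = 0.0103). When both rows were added together, an alternative chosen after seeing the data, the DDX39B log2 fold change was -0.43 and it was called (edgeR adjusted p = 0.0146). In the kava table the readthrough gene lay between 1.10 and 2.29 TPM.

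DHX16, DHX8 and SNRNP200 were slightly higher in every SNRPA1 siRNA library than in any control without passing the test. DHX16, which acts before branching, had 87.5, 89.1 and 84.9 CPM with SNRPA1 siRNA, against 72.6, 78.7 and 77.1 CPM with control siRNA (0.19, 95% interval 0.023 to 0.37, edgeR adjusted p = 0.123). DHX8, which releases mRNA, had 67.2, 69.6 and 71.0 CPM with SNRPA1 siRNA, against 54.6, 65.1 and 59.4 CPM with control siRNA (0.21, 95% interval 0.0045 to 0.42). SNRNP200 had 409, 401 and 395 CPM with SNRPA1 siRNA, against 310.1, 391 and 388 CPM with control siRNA (0.14, 95% interval -0.092 to 0.38). Its distance from the controls rested on replicate 1, the lowest library. AQR and DHX38 overlapped, with log2 fold changes of -0.037 (95% interval -0.38 to 0.30) and -0.0033 (95% interval -0.16 to 0.16). In total 6 members lay wholly above the controls and 2 wholly below, where 18.4% of tested genes lay wholly above and 20.3% wholly below (38.7% in either direction).

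**Figure D2:**
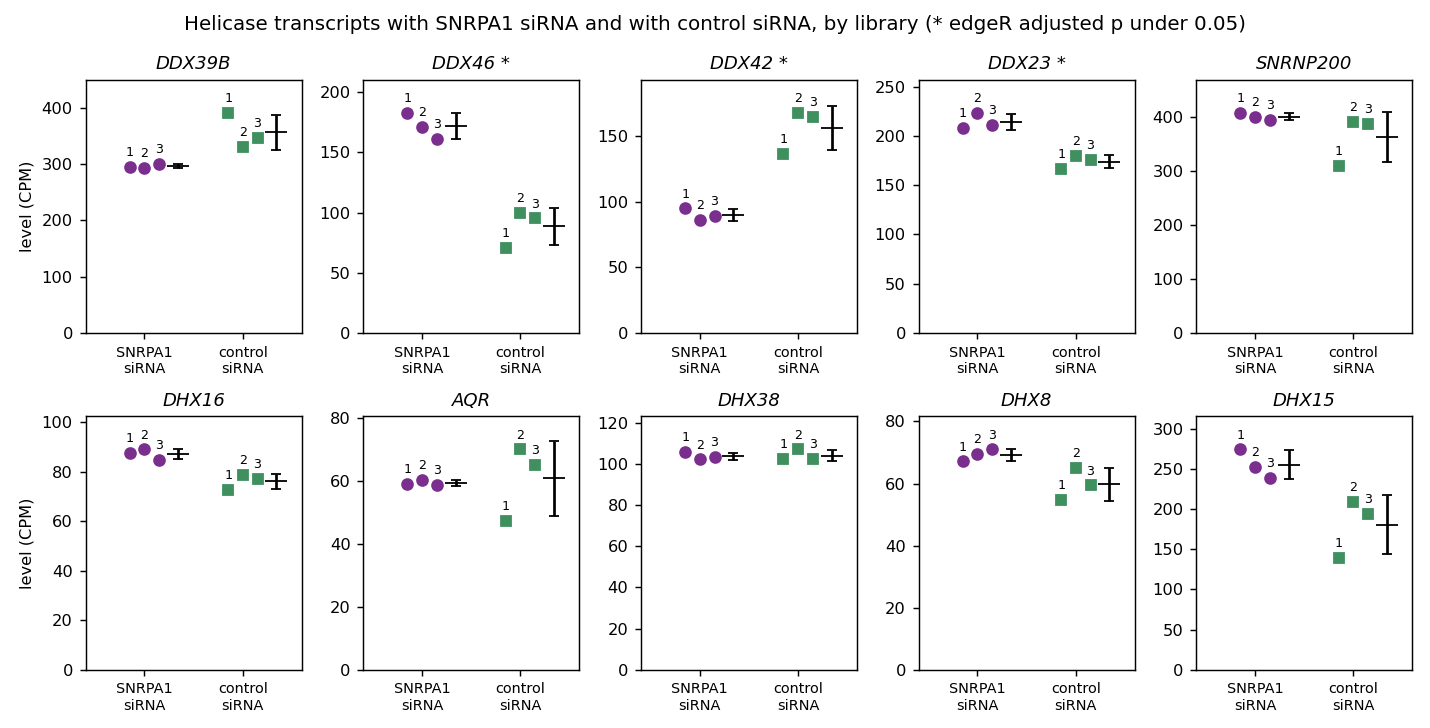
Levels of the 10 helicase transcripts in CPM (y axes from 0) in the 3 SNRPA1 siRNA libraries (purple circles) and the 3 control siRNA libraries (green squares), with replicate numbers; black bars are means ± SD and an asterisk marks an edgeR adjusted p under 0.05. DDX46 at 162 to 183 CPM lies above its controls at 70.8 to 99.5 CPM, DDX42 lies below its controls, and control replicate 1 is the lowest control for 8 of the 10 genes and the highest for DDX39B.

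Control siRNA replicate 1 stood apart from the other controls. Its mean root mean square distance to them was 0.448 on the log2(CPM + 1) scale, against 0.368 and 0.343 for control replicates 2 and 3 and 0.267 to 0.285 within the SNRPA1 siRNA group. Relative to the other controls its median gene was 0.22 lower on the log2 scale in the longest of 3 equal length classes (over 7612 bases, as implied by counts and FPKM) and 0.22 higher in the shortest (under 4209 bases), and 8 of the 10 helicases belong to the longest. The members' own deviations in that library ran from -0.53 for DHX15, -0.50 for AQR and -0.45 for DDX46 to 0.21 for DDX39B. The part of this library in the results was measured by leaving it out. edgeR then called 33.1% of 13729 genes (16.2% higher and 16.9% lower) and 6 members, 3 higher and 3 lower.

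Without control siRNA replicate 1, DDX46 was 1.76-fold higher (log2 fold change 0.82, edgeR adjusted p = 0.000626) and DDX42 was at 0.542 of its control level (-0.88, edgeR adjusted p = 0.000442). DDX23 kept a log2 fold change of 0.27 (edgeR adjusted p = 0.00807). DHX15 became called at 0.34 (edgeR adjusted p = 0.00946), and DDX39B at -0.19 (edgeR adjusted p = 0.0166) and AQR at -0.19 (edgeR adjusted p = 0.0393) became called lower. SNRNP200 was then at 0.042. Leaving out SNRPA1 siRNA replicate 1, 2 or 3 gave 0 called genes by edgeR (2992, 2889 and 3267 at an unadjusted p under 0.05, with 4, 4 and 5 members among them). Without control replicate 3 there were 15 called genes and 0 members, and without control replicate 2 there were 1060 genes and 2 members. For scale, 13772 genes were tested with all 6 libraries. DESeq2 on all 6 libraries called 3195 genes (23.2%, or 10.4% higher and 12.8% lower) and 6 members, 4 higher and 2 lower. Over all 14 other settings the log2 fold change lay between 0.82 and 1.05 for DDX46 and between -0.88 and -0.74 for DDX42, and each was called in 9 of the 14, while DDX23 was called in 6.

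**Figure D3:**
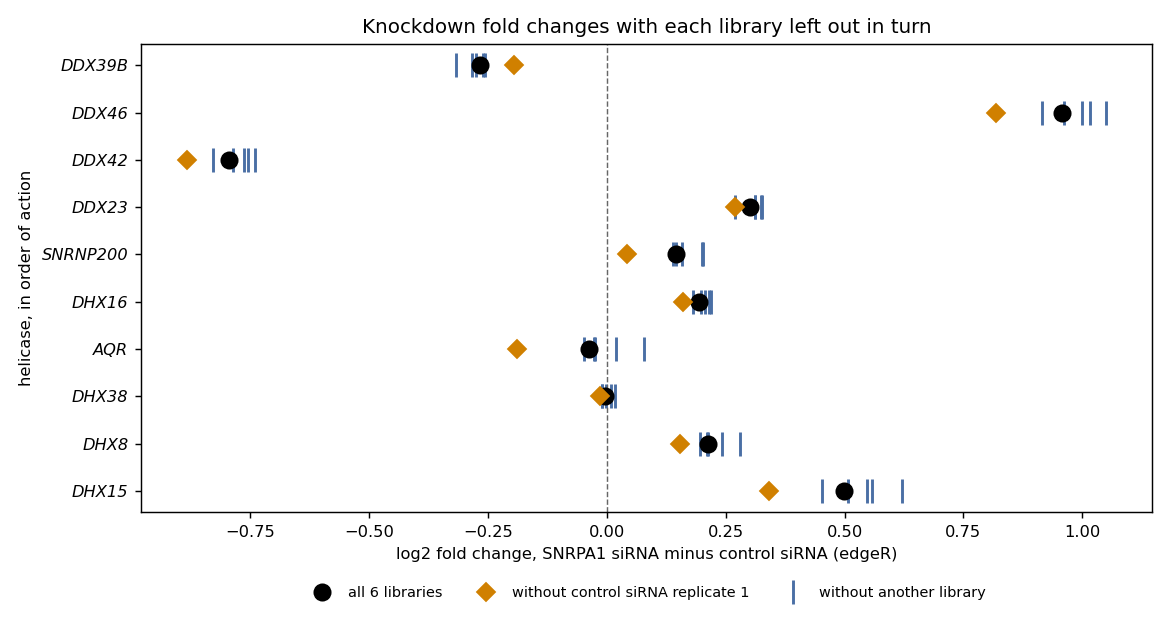
Log2 fold changes of the 10 helicases, SNRPA1 siRNA minus control siRNA (x axis, edgeR), in order of action from top to bottom, with all 6 libraries (black), without control siRNA replicate 1 (orange) and without each other library (blue ticks). DDX46 stays between 0.82 and 1.05 and DDX42 between -0.88 and -0.74, whereas AQR lies on either side of 0.

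The 2 experiments, which share no library, were set side by side without a test between them. SNRPA1 itself had log2 fold changes of -0.24 with kava and -1.50 with SNRPA1 siRNA. DDX42 was called lower in both, with log2 fold changes of -0.17 with kava and -0.80 with SNRPA1 siRNA. DDX39B had -0.26 with kava (called) and -0.27 with SNRPA1 siRNA (not called). Its SNRPA1 siRNA value varied with the setting, at -0.19 without control siRNA replicate 1 and -0.43 with the ATP6V1G2-DDX39B row added. The kava value was -0.26 with that row added. DHX15 was called lower with kava (-0.19) and had 0.50 with SNRPA1 siRNA (not called). DDX46 and DDX23, called higher with SNRPA1 siRNA, had 0.13 and -0.0071 with kava. The median over the 10 members was -0.11 with kava and 0.17 with SNRPA1 siRNA, where the median of all tested genes was -0.014 and -0.0032. Without control siRNA replicate 1 the members' SNRPA1 siRNA median was 0.097.

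**Figure D4:**
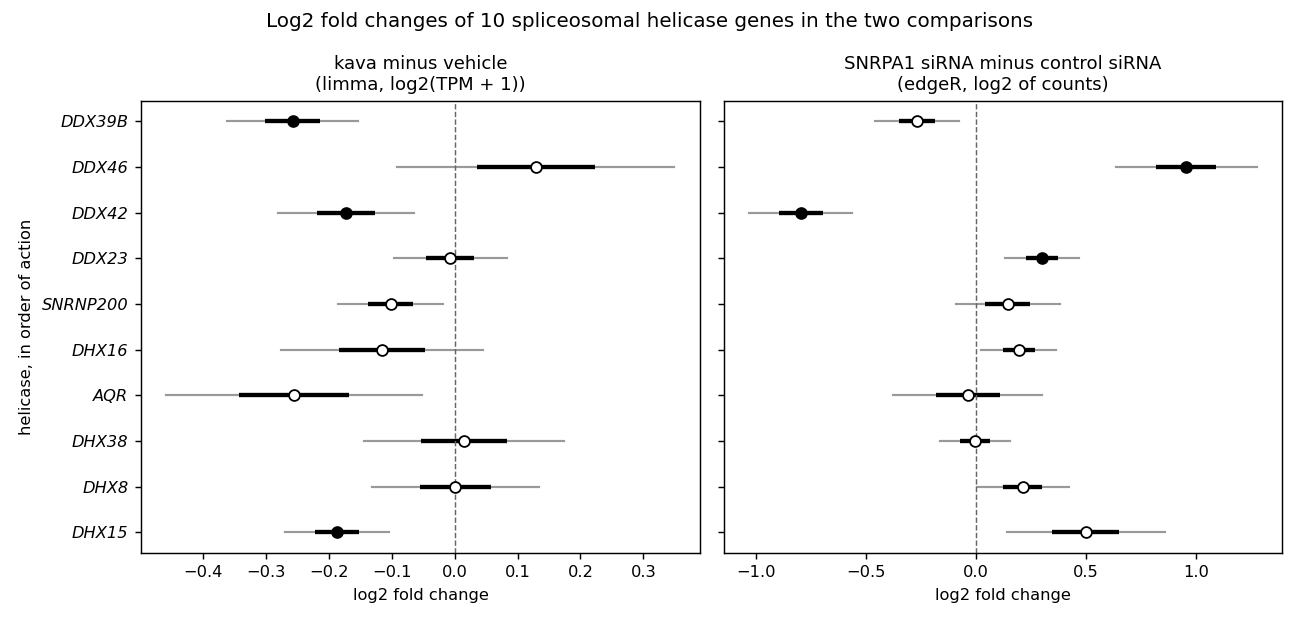
Log2 fold changes (x axes) of the 10 helicases in order of action, kava minus vehicle on the left (limma) and SNRPA1 siRNA minus control siRNA on the right (edgeR); filled points are called, thick bars are ± SE and thin bars 95% intervals. On the left the called genes lie at -0.26, -0.19 and -0.17, and on the right DDX46 at 0.96 and DDX42 at -0.80 lie farthest from 0.

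Other helicases gave a scale for these values. Of 34 DEAD and DEAH helicases outside the spliceosome, many of which act in ribosome assembly, translation or decay, kava gave 16 lower and 4 higher, with a median log2 fold change of -0.13. DDX24 was lowest, at 153, 156 and 176 TPM with kava against 222, 220.3 and 227 TPM with vehicle (-0.46). The nucleolar paralogues DDX50 (-0.38) and DDX21 (-0.36) followed. With SNRPA1 siRNA the same 34 gave 1 higher, DDX47 (0.63), a factor of ribosomal RNA processing, and 1 lower, DDX1 (-0.63), with a median of 0.035, and 6 higher and 5 lower without control siRNA replicate 1. Of 7 further helicases linked to the spliceosome, kava gave 2 lower, DHX9 (-0.30) and DHX35 (-0.30), and 2 higher, of which DDX41 was at 0.24. With SNRPA1 siRNA edgeR called 0 of these 7, against 3 at an unadjusted p under 0.05, 3 by DESeq2 and 4 without control siRNA replicate 1. DDX5, the most abundant of them, had 647, 618 and 569 CPM with SNRPA1 siRNA, against 546, 666 and 637 CPM with control siRNA.

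The transcripts of proteins that the helicases work with were counted in 6 groups, 69 genes in all. With kava 12 were lower and 3 higher (median -0.070). With SNRPA1 siRNA 13 were higher and 3 lower (median 0.16), and without control siRNA replicate 1 these counts were 33 and 8. Both are given against the backgrounds above, and the groups follow the order of the cycle.

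Among 13 U2 and branch-site partners, kava gave 3 lower and 0 higher by limma (5 lower and 1 higher at an unadjusted p under 0.05). They were SF3A3 (-0.24), SF3B1 (-0.21) and SF3B3 (-0.13), subunits of the complexes that clamp the branch site. SF3B1, which binds DDX46 and DDX42, had 149, 152 and 141 TPM with kava, against 164, 167 and 182 TPM with vehicle. With SNRPA1 siRNA only SF3B6 was called (0.35), at 108, 114 and 114 CPM against 95.5, 79.2 and 88.2 CPM with control siRNA, and without control replicate 1 this group had 8 called higher and 1 lower.

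Among 13 export partners of DDX39B, kava gave 2 lower and 2 higher. THOC1, a core TREX subunit, had 32.2, 33.4 and 34.96 TPM with kava, against 56.7, 57.8 and 60.2 TPM with vehicle (-0.78 ± 0.0467, limma adjusted p = 3.69e-05). ALYREF, the export adaptor that DDX39B loads, had 264, 254 and 237 TPM with kava, against 193, 197 and 187 TPM with vehicle (0.39 ± 0.0469, limma adjusted p = 0.000941). FYTTD1, another adaptor, was also higher (0.31). The called export genes thus ran in both directions. With SNRPA1 siRNA POLDIP3 (0.36) and THOC3 (0.28) were higher, and on all 6 libraries neither edgeR nor DESeq2 called any of the 13 lower, with 2 lower at an unadjusted p under 0.05. Without control siRNA replicate 1, edgeR called 4 higher and 2 lower.

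Among 13 tri-snRNP partners of DDX23 and SNRNP200, kava gave 3 lower, USP39 (-0.21), PRPF4 (-0.19) and SNRNP40 (-0.17), and 0 higher by limma (1 at an unadjusted p under 0.05). With SNRPA1 siRNA 3 were higher and 1 lower. PRPF3, a U4/U6 protein, had 89.5, 97.7 and 98.5 CPM with SNRPA1 siRNA, against 56.3, 56.1 and 56.2 CPM with control siRNA (0.76 ± 0.0749, edgeR adjusted p = 0.00698). PRPF31, which also binds U4, had 77.8, 87.7 and 92.8 CPM with SNRPA1 siRNA, against 181, 135 and 142 CPM with control siRNA (-0.82 ± 0.130, edgeR adjusted p = 0.0152). SNRNP27 was higher (0.59). Without control siRNA replicate 1 the group had 6 called higher and 2 lower. Transcripts for proteins of the same particle thus differed in direction, as those of DDX46 and DDX42 did.

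The 7 genes for proteins of the intron-binding complex of AQR and its surroundings had 1 called in each comparison. CRNKL1 was lower with kava (-0.22) and SYF2 higher with SNRPA1 siRNA (0.42). Without control siRNA replicate 1 there were 3 higher. Among 11 partners of the catalytic steps, kava gave 2 lower, SNW1 (-0.43) and CWC22 (-0.30). With SNRPA1 siRNA 3 were higher and 1 lower, with a median of 0.39. The counts were 6 and 1 by DESeq2, and 7 and 1, with a median of 0.27, without control siRNA replicate 1. Of these, GPKOW, the G-patch partner of DHX16, had 19.7, 20.5 and 19.8 CPM with SNRPA1 siRNA, against 39.7, 30.5 and 30.7 CPM with control siRNA (-0.75 ± 0.127, edgeR adjusted p = 0.0176). CWC25 (0.52) and SLU7 (0.48) were among the higher ones.

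DHX15 depends on G-patch proteins to switch it on, and the transcripts of 12 such or related proteins were measured. TFIP11, its partner in disassembly, had 32.6, 34.5 and 35.2 TPM with kava, against 41.5, 41.2 and 39.7 TPM with vehicle (-0.25 ± 0.0461, limma adjusted p = 0.00555). In the knockdown it had 78.1, 87.9 and 87.7 CPM with SNRPA1 siRNA, against 59.9, 64.3 and 58.1 CPM with control siRNA (0.48 ± 0.0856, edgeR adjusted p = 0.0204). TFIP11 was thus called in each experiment, lower with kava and higher with SNRPA1 siRNA. ZGPAT was the only other of the 12 called with kava (0.19), and NKRF (0.50) was called higher and RBM5 (-0.54) lower with SNRPA1 siRNA, where 3 were higher and 1 lower in all and 5 higher and 2 lower without control siRNA replicate 1.

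**Figure D5:**
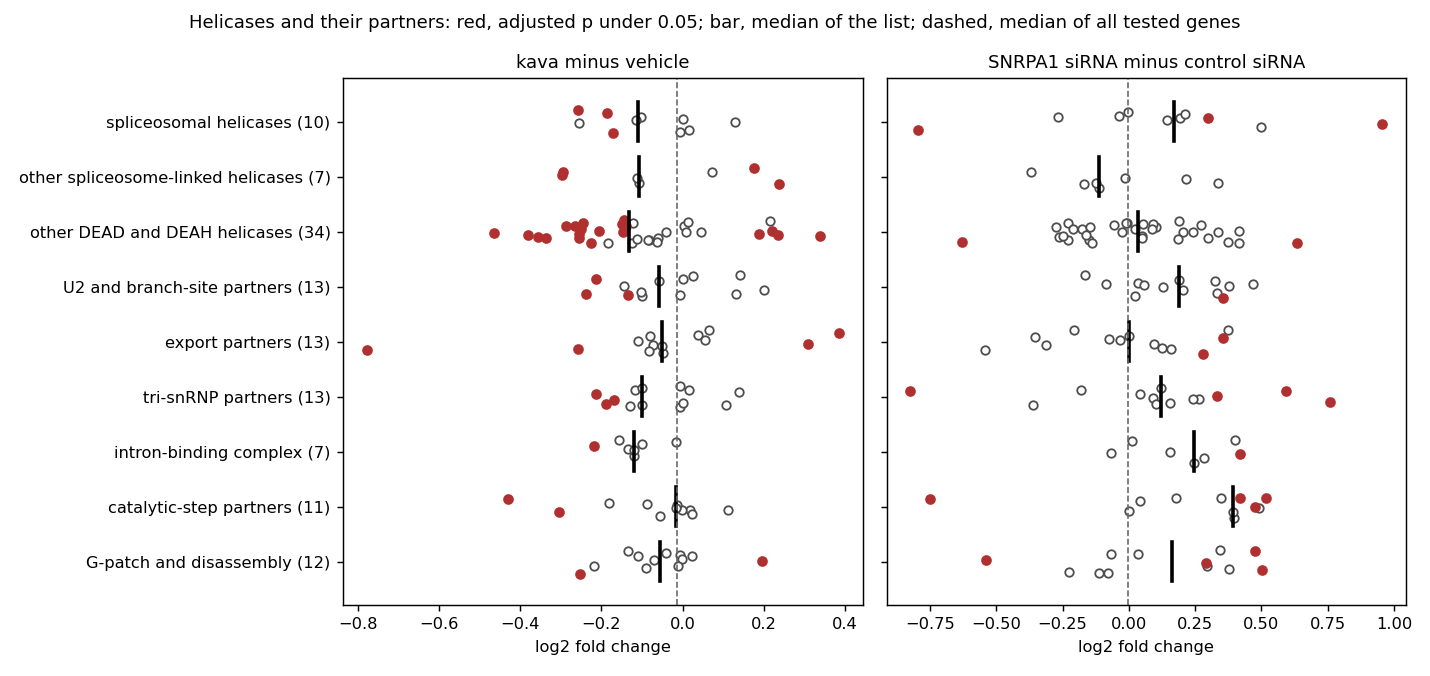
Log2 fold changes (x axes) of the helicases, other helicases and partner groups, kava minus vehicle on the left and SNRPA1 siRNA minus control siRNA on the right; each point is a gene, red where called, black bars are medians and the dashed line is the median of all tested genes. On the left, 16 of the 34 other DEAD and DEAH helicases are called lower and 4 higher, and on the right the catalytic-step partners have a median of 0.39.

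The genes with the most similar profiles were found by root mean square distance over the 12 libraries, with log2 levels centred within each experiment, among 9992 genes tested in both with a mean of at least 5 TPM and 5 CPM. The gene nearest to DHX15 was SF3B1, at a distance of 0.0381, where the DHX15 profile itself had a root mean square of 0.237. SF3B1 had 325, 298 and 285 CPM with SNRPA1 siRNA, against 161, 258 and 236 CPM with control siRNA, again with control replicate 1 the lowest. DDX42 was nearest to AHCYL1 (0.0414), which had 74.6, 71.8 and 75.9 CPM with SNRPA1 siRNA, against 115, 136 and 133 CPM with control siRNA. DDX46, with the widest profile of the 10 (0.372), was nearest to BTN2A1 (0.0973). For the others the nearest genes were EIF4H for DDX23 (0.0254), SIAH1 for SNRNP200 (0.0241), HNRNPUL1 for DHX16 (0.0445), VPS39 for DHX38 (0.0307), M6PR for DHX8 (0.0423), PTPN13 for AQR (0.0581) and LGALS3 for DDX39B (0.0394). The mean profile of the 10 was nearest to EHMT1, followed by PSPC1, PDCD11, EIF4EBP2 and FEZ2, at 0.0229 to 0.0352. These distances rest on 12 libraries that all genes share and are descriptions.

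Several members share exonic bases with a neighbouring gene in GENCODE 29, and the sources used here do not say whether counting used strand. DDX46 shares 236 exonic bases with C5orf24 on the same strand, with mean counts of 8064 for DDX46 and 3252 for C5orf24. DDX42 shares 173 with CCDC47 on the opposite strand, with mean counts of 7873 for DDX42 and 7031 for CCDC47. DHX38 shares 343 with TXNL4B, DHX16 shares 92 with C6orf136 and DHX8 shares 68 with ETV4, all on the opposite strand. The values of these genes are uncertain to that extent, and the share of reads involved was not tested.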

How the data were processed

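RNA from 12 BEAS-2B libraries was analysed from the tables that the authors deposited. Tools named in the submitters' processing notes, with no step assigned to either table, are cutadapt 1.9 for trimming, HISAT2 2.0.4, StringTie 1.3.4d and DESeq2, and the build is hg38. The kava and vehicle table holds TPM values that the authors made, and its deposited name mentions salmon, a tool absent from those notes. Raw counts stand beside FPKM values in the siRNA table, as its deposited column headers state. The last FPKM column lacks its prefix and was taken by name, and its values follow the count column of the same name. FPKM values served for levels between genes, for gene length and for 1 alternative test.

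For kava against vehicle, limma 3.58.1 (R 4.3.3) was fitted with a trend to log2(TPM + 1) of all genes averaging 1 TPM or more. This scale slightly understates changes of low genes. For SNRPA1 siRNA against control siRNA, the quasi-likelihood test of edgeR 4.0.16 was run after TMM scaling on all genes averaging 1 CPM or more. Tests were two-sided, with Benjamini-Hochberg adjustment over all tested genes. The SE of an edgeR fold change is its size over the square root of F. DESeq2 1.42.0 was an alternative, as were other pseudocounts, filters and scalings and each library left out. All 10 helicases passed the filters in both tables.

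The helicases and gene lists were chosen with earlier results of these data known. Named genes are all 10 helicases, SNRPA1, up to 3 called genes with the largest change per list and comparison (or the most abundant if none was called) and the nearest profiles. ATP6V1G2-DDX39B, the genes overlapping members and the marker genes lie outside this rule and were picked with their values in view. Promoters came from RefSeq (GRCh38.p14), where all 10 helicases matched, and exons from GENCODE 29. Protein sequences were not used here.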

Additional observations from a re-analysis of the deposited data

How the results depend on the processing

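With kava, the 4429 called genes became 3155 to 4312 when each library was left out in turn, and the number of called helicases 2 to 3. DDX39B and DHX15 were called in all 15 other settings, DDX42 in 9 of them (limma adjusted p 0.0227 to 0.0938). With SNRPA1 siRNA the 1677 called genes and 3 helicases became 3195 and 6 by DESeq2 and 669 and 2 with no filter on low counts. Leaving out each library in turn gave 0 to 4546 genes and 0 to 6 helicases. With the replicate number as a block edgeR called 0 of 13772 genes and 0 helicases (2919 and 5 at an unadjusted p under 0.05). Same-numbered deviations correlated at -0.016, -0.112 and 0.093 for kava and vehicle and at -0.375, 0.0014 and -0.187 for the siRNA groups. Differently numbered ones ran from -0.161 to 0.177 and from -0.269 to 0.315. With so few pairs these correlations cannot settle whether the numbers pair the libraries. The cause of the differences between settings was not tested.

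The sign of the log2 fold change turned for genes near 0. With kava, DDX23 was at 0.0046 under median-ratio scaling, and with each library left out it ran from -0.031 to 0.019, DHX38 from -0.040 to 0.090 and DHX8 from -0.034 to 0.038. With SNRPA1 siRNA, DHX38 was at 0.0042 by DESeq2 and with median-ratio size factors and at 0.0089 with no filter, and with each library left out it ran from -0.014 to 0.018. Over the same omissions AQR ran from -0.19 to 0.077 and DDX5 from -0.093 to 0.048. The depth of the kava libraries is unknown.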
